A study of Mus musculus with 12 samples.

Results

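TRIM genes encode tripartite motif proteins, named for a RING finger, B-boxes and a coiled coil that stand in a row. The RING finger makes most of them ubiquitin ligases, and the PRY/SPRY domain at the far end of many members binds the target. Several act in antiviral defense, in the pathways that sense viral RNA or as restriction factors that bind retroviral capsids, and many are known as interferon-stimulated genes. Type I interferon such as IFNβ signals through its receptor to the nucleus, and many of the genes it turns on carry a DNA motif called the interferon-stimulated response element (ISRE). The genes described here are Trim12a, Trim12c, Trim14, Trim21, Trim25, Trim26, Trim30a, Trim30b, Trim30d and Trim34a. They were chosen by symbol from the deposited counts as 10 of the 56748 genes listed, and another 63 genes of the family served for comparison. All 10 passed the filter on low counts, which left 15033 genes tested.

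Bulk RNA sequencing was done on M2-like polarized bone marrow-derived macrophages (BMDM) of C57BL/6J mice, with 3 libraries in each of 4 conditions and 12 in all. All BMDM were grown with 20 ng/mL M-CSF, polarized for 48 hours with 10 ng/mL IL4 and cultured under their condition for another 72 hours. Untreated control BMDM received plain medium. The eGFP supernatant came from YUMM5.2 eGFP cells, a mouse melanoma line carrying a lentiviral eGFP gene under a promoter that doxycycline (Dox) switches on. The Ifnb1eGFP supernatant came from YUMM5.2 cells in which the same promoter drives Ifnb1 together with eGFP. Both donor lines had been given Dox at 1 μg/mL. The IFNβ concentration was set to 1500 pg/mL in Ifnb1eGFP supernatant by dilution and also in medium with recombinant IFNβ (rIFNβ), and eGFP supernatant was diluted to the same extent. The macrophages carried no transgene. The study's methods describe its wild-type C57BL/6J mice as female and bought as young adults, and the labels repeat neither for the marrow donors. The design text counts 3 mice per condition without saying whether conditions share mice.

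Library totals ran from 31526034 to 45348457 counts. Levels are in CPM, which is counts per 1000000 of a library's TMM-normalized total, and errors are the SD of 3 libraries. The 6 macrophage markers checked summed to 5315 to 5836 CPM in libraries without IFNβ and 6144 to 6381 CPM in those with it, and 4 markers of IL4-polarized macrophages to 738.1 to 960.2 CPM and 824.8 to 1019 CPM. Markers of T cells summed to 3.72 to 5.05 CPM in libraries without IFNβ and 8.04 to 9.96 CPM in those with it. These sums rest on part of the 4 T cell markers. Cd3e had no counts in either condition without IFNβ. Cd3g had none with eGFP supernatant or in either condition with IFNβ, and Cd8a had none with rIFNβ. Neutrophil markers summed to 4.28 to 5.72 CPM without IFNβ and 0.119 to 0.708 CPM with it, and dendritic cell markers to 1.22 to 1.61 CPM and 0.273 to 0.404 CPM. The neutrophil marker Ly6g had counts only with rIFNβ. The 4 melanoma markers never summed to more than 0.81 CPM, B cell markers not to more than 0.329 CPM, and fibroblast markers lay between 14.55 and 31.7 CPM. The part of these differences in the results was not tested. In bulk RNA, fewer cells of a type and less RNA per cell cannot be told apart.

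One library stood apart from its condition. In eGFP supernatant replicate 2 a list of interferon-stimulated genes that holds no TRIM gene (Irf7, Ifit1, Isg15, Mx1, Oas1a and others) summed to 1083 CPM, against 267.2 and 161.8 CPM in replicates 1 and 3. Untreated libraries lay between 153.2 and 234.1 CPM, and those given IFNβ between 13130 and 14830 CPM. Fold changes against eGFP supernatant are therefore given with and without this library for the members, and for other genes named where leaving it out ended a call or moved the fold by over 1.5 times.

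Of the 10 genes, 7 lie on chromosome 7, and 6 of these within a cluster of TRIM genes. By the GENCODE M39 annotation of GRCm39 the cluster from Trim6 to Trim30e-ps1, bases 103868000 to 104184058, spans 316.1 kb and holds 20 annotated genes, 11 of them TRIM genes. The members inside it are Trim34a (103893663 to 103911446, plus strand), Trim12a (103945967 to 103964797, minus strand), Trim12c (103987961 to 104002601, minus strand), Trim30b (104004589 to 104019103, minus strand), Trim30a (104058232 to 104114407, minus strand) and Trim30d (104119221 to 104157107, minus strand). Trim21 lies 1653 kb away on the same chromosome (102207128 to 102214704, minus strand). Trim14 is on chromosome 4 (46493781 to 46536143, minus strand), Trim25 on chromosome 11 (88890202 to 88911122, plus strand) and Trim26 on chromosome 17 (37147973 to 37170290, plus strand). All 10 are protein-coding.

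Promoter windows of RefSeq, from 250 bases before to 50 bases after each gene start, were at hand for 9 of the 10 members, with Trim14 missing. The windows come from GRCm38.p6, and their positions were found again by an exact match in GRCm39. A core ISRE, written GAAANNGAAA and searched on both strands, was present in the windows of 7 of these 9 members. It was found in 1131 of the 32851 promoter windows of the table, or 3.44%. A second motif, the gamma-activated site written TTCNNNGAA, was also searched. It was found in 0 of these members and in 8.3% of all windows. A match describes letters and not a bound site. The stretches that follow show each ISRE match in 30 bases on the strand of the gene, with the element in capitals. Most read as its reverse complement. Neighboring capitals in Trim21 and Trim26 are 2 overlapping matches.
Trim34a, chr7:103893664-103893693, plus strand: tggtttggagTTTCAGTTTCttttctctgc
Trim12a, chr7:103964673-103964702, minus strand: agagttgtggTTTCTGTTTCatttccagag
Trim12c, chr7:104002566-104002595, minus strand: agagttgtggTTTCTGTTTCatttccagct
Trim30a, first start, chr7:104114417-104114446, minus strand: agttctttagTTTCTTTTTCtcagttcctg
Trim30a, second start, chr7:104095311-104095340, minus strand: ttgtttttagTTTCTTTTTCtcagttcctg
Trim30d, chr7:104157078-104157107, minus strand: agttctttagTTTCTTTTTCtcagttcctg
Trim21, chr7:102214654-102214683, minus strand: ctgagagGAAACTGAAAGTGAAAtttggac
Trim26, chr17:37147871-37147900, plus strand: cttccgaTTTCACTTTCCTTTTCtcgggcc

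Paralogs of the cluster shared the letters around the element. The 30 bases of Trim30a at its first start and of Trim30d had 0 differences, and those of Trim12a and Trim12c differed at 2 bases. The second RefSeq start of Trim30a, which lies inside the gene, differed from the first at 4 bases. Counted from the RefSeq start as position 0, the element began at -36 in Trim30a, -41 in Trim30d, -29 in Trim12c, 10 in Trim12a and 10 in Trim34a. In several members, Trim30d and Trim12c among them, the RefSeq start lies inside the GENCODE gene. The elements of Trim30d and Trim12c, though before that start, lie inside the GENCODE gene too. In Trim21 the matches began at 13 and 19, and in Trim26 at -160 and -154. The 100 bases before the first RefSeq start of Trim30a and the RefSeq start of Trim30d are shown because the 2 paralogs have a run of 89 bases in common there. Those of Trim30d lie partly inside the GENCODE gene.
Trim30a, chr7:104114401-104114500, minus strand: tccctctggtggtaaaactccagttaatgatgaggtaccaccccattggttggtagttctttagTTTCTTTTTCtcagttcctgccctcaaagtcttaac
Trim30d, chr7:104157057-104157156, minus strand: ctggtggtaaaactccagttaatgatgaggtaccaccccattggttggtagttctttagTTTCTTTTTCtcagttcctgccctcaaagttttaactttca

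The windows of Trim25 and Trim30b held no ISRE match, which says nothing of sequence elsewhere. The window of Trim30b (chr7:104007804-104008103, minus strand) lies wholly inside the GENCODE gene, whose first base on that strand is 104019103. Sequence before the GENCODE start of Trim30b was therefore not searched. Members with an ISRE match in their window and members without one rose with IFNβ.

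The first question was which of these genes changed when BMDM met IFNβ from tumor cells, set against the supernatant of eGFP control cells. All 10 rose with Ifnb1eGFP supernatant, where 30.1% of all genes tested were called higher in edgeR's quasi-likelihood test (Benjamini-Hochberg adjusted p of 0.05 or less). At the thresholds of the study's methods, which ask for a log2 fold change of 2 or more and an adjusted p of 0.01 or less, 6 of the 10 were called (Trim12a, Trim21, Trim30a, Trim30b, Trim30d and Trim34a) and 2.77% of all genes. The median log2 fold change of the members was 2.12, from 0.70 in Trim26 to 4.34 in Trim30b, and that of all genes tested was 0.028. Without eGFP supernatant replicate 2 all 10 were again called higher, 6 of them at the study's thresholds, and their median was 2.28. In that fit 26.2% of all genes were called higher, and 419 of 15320 genes were higher at the study's thresholds. In all 10 the 3 libraries with Ifnb1eGFP supernatant lay above the 3 with eGFP supernatant, as 32.4% of all genes did. The same genes were set against untreated control for rIFNβ. There too all 10 rose, with 30.7% of all genes called higher, and the same 6 passed the study's thresholds beside 2.99% of all genes. Their median log2 fold change was 2.29 (0.83 to 4.67) and that of all genes was 0.0439. No library of a member overlapped between rIFNβ and untreated control, and 36.4% of all genes had their rIFNβ libraries above the controls.

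**Figure D1:**
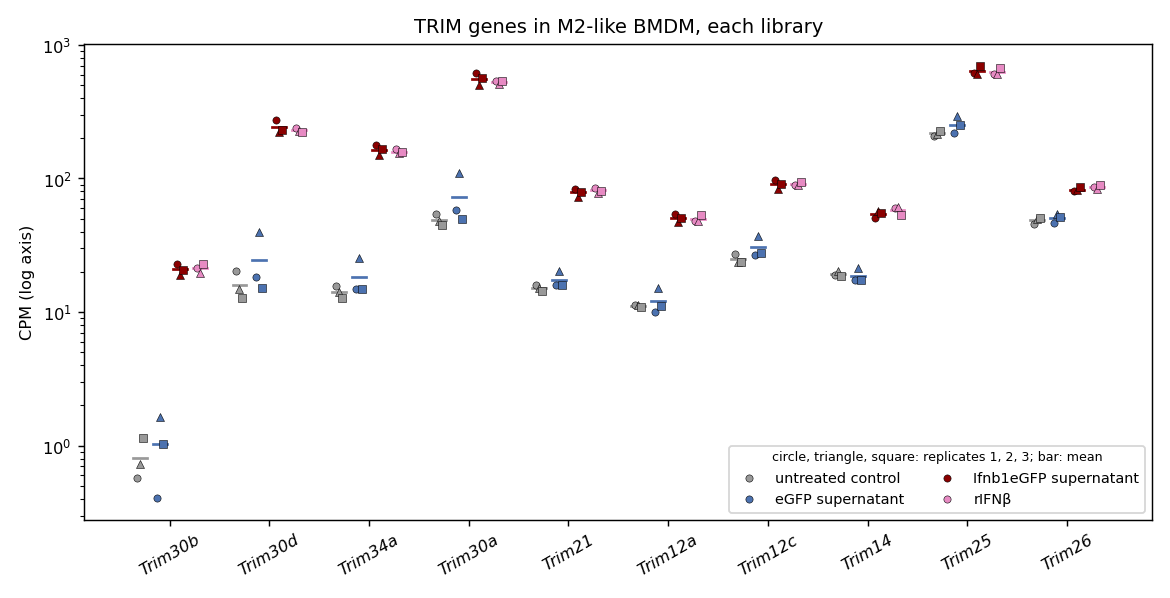
CPM of the 10 TRIM genes on a log axis in each of 12 libraries, colored by condition, with circles, triangles and squares for replicates 1, 2 and 3 and a bar at the mean of 3. In every gene the 6 libraries given IFNβ lie above the 6 without it, and eGFP supernatant replicate 2 (blue triangle) is the highest of those 6.

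Trim30b, Trim30d and Trim34a had the highest log2 fold changes of the members for either source of IFNβ, and Trim30a came next. Trim30a encodes a ligase known to restrain NF-κB signaling by driving the breakdown of TAB2 and TAB3. Its level was 54.6, 48.3 and 44.5 CPM in untreated replicates 1 to 3 and 57.8, 111 and 49.6 CPM with eGFP supernatant. With Ifnb1eGFP supernatant it was 611, 498 and 563 CPM, and with rIFNβ 540, 508 and 534 CPM. The libraries with and without IFNβ did not overlap, and replicate 2 of the eGFP supernatant was the highest of the 6 libraries without IFNβ. The log2 fold change against eGFP supernatant was 2.94 (SE 0.248, 7.67-fold, edgeR's quasi-likelihood test, adjusted p = 1.48e-06). Without that replicate it was 10.4-fold. Against untreated control rIFNβ raised it 10.7-fold, a log2 fold change of 3.43 (edgeR, adjusted p = 4.63e-07).

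Trim30b was the lowest of the 10 without IFNβ. Its levels were 0.572, 0.732 and 1.14 CPM in untreated libraries (18, 25 and 48 counts) and 0.404, 1.63 and 1.03 CPM with eGFP supernatant (16, 67 and 41 counts). They reached 22.9, 19.0 and 20.8 CPM with Ifnb1eGFP supernatant and 21.4, 19.6 and 22.9 CPM with rIFNβ. It was therefore nearly silent without IFNβ and still the lowest of the members with it. The log2 fold change of 4.34 (SE 0.296, 20.3-fold, adjusted p = 2.56e-07 by edgeR's quasi-likelihood test) was the largest of the 10, and its 95% interval ran from 3.69 to 4.99. It was 29.0-fold without eGFP supernatant replicate 2. With rIFNβ the log2 fold change was 4.67 (25.4-fold, edgeR, adjusted p = 1.82e-07).

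Trim30d, whose product is close to that of Trim30a, was at 20.4, 14.8 and 12.8 CPM in untreated BMDM. With eGFP supernatant it was at 18.2, 40.0 and 15.2 CPM. Replicate 2 again stood above all other libraries without IFNβ. With Ifnb1eGFP supernatant the levels were 272, 223 and 231 CPM and with rIFNβ 238, 226 and 222 CPM. The log2 fold change was 3.30 (SE 0.31, 9.88-fold, adjusted p = 3.46e-06 by edgeR's quasi-likelihood test), and 14.5-fold without the replicate. With rIFNβ it was 3.84 (14.4-fold, edgeR, adjusted p = 1.23e-06).

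The makeup of the Trim30 group shifted as it rose. Of the summed CPM of Trim30a, Trim30b, Trim30c and Trim30d, Trim30a gave 73.9 ± 2.14% in untreated BMDM (SD, n = 3) and 64.8 ± 0.985% with Ifnb1eGFP supernatant. The share of Trim30d went from 23.8 ± 2.56% to 28.2 ± 0.918%, that of Trim30b from 1.27 ± 0.602% to 2.43 ± 0.0206% and that of Trim30c from 1.02 ± 0.277% to 4.58 ± 0.083%. These 2 conditions differ in tumor supernatant as well as IFNβ. With eGFP supernatant the shares of Trim30a, Trim30d, Trim30b and Trim30c were 73.7%, 24.15%, 1.04% and 1.095%. With rIFNβ they were 64.6%, 28.0%, 2.61% and 4.775%. Libraries with IFNβ did not overlap those without it for any of the 4 shares. No test was made of the shares. Trim30a remained the main source of counts in every condition, with 64.1% or more in each library. Summed over the 4 genes, counts gave a log2 fold change of 3.11 (8.65-fold, edgeR, adjusted p = 1.71e-06) against eGFP supernatant and 3.62 for rIFNβ against untreated control. The former was 11.98-fold without eGFP supernatant replicate 2.

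Trim34a, a PRY/SPRY gene next to Trim6 in the cluster, was at 15.6, 14.1 and 12.8 CPM in untreated BMDM. It was at 15.0, 25.5 and 14.8 CPM with eGFP supernatant. Ifnb1eGFP supernatant brought 177, 149 and 165 CPM and rIFNβ 165, 154 and 157 CPM. Both IFNβ conditions lay in 1 narrow band, and the eGFP supernatant libraries lay close together apart from replicate 2. Its log2 fold change was 3.15 (SE 0.182, 8.88-fold, edgeR's quasi-likelihood test, adjusted p = 6.48e-08) and its fold was 11.0 without replicate 2 of the eGFP supernatant. For rIFNβ the log2 fold change was 3.49 (11.3-fold, edgeR, adjusted p = 3.05e-08).

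The Trim12 genes are rodent relatives of primate TRIM5, the restriction factor that binds incoming retroviral capsids. Trim12a was at 11.3, 11.2 and 10.9 CPM in untreated BMDM and 10.1, 15.1 and 11.2 CPM with eGFP supernatant. It was at 54.2, 47.4 and 50.9 CPM with Ifnb1eGFP supernatant and 48.1, 48.1 and 53.0 CPM with rIFNβ. The log2 fold changes were 2.07 (SE 0.121, 4.19-fold, adjusted p = 7.54e-08) and 2.16 (4.47-fold, adjusted p = 5.15e-08) by edgeR's quasi-likelihood test, and the first was 4.78-fold without eGFP supernatant replicate 2. Trim12a was thus a gene whose untreated libraries hardly differed and whose levels rose by about the same factor in both comparisons.

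Trim12c was at 27.3, 23.7 and 23.7 CPM in untreated BMDM and at 26.8, 37.3 and 27.8 CPM with eGFP supernatant. With Ifnb1eGFP supernatant it was at 96.8, 84.0 and 91.4 CPM, and with rIFNβ at 88.8, 89.1 and 93.6 CPM. The 6 libraries with IFNβ formed 1 group above all others. Its log2 fold changes of 1.57 (SE 0.113, 2.96-fold, adjusted p = 4.02e-07) and 1.86 (3.64-fold, adjusted p = 9.91e-08) by edgeR's quasi-likelihood test passed at 0.05 without reaching the fold the study asked for. The same holds for Trim14, Trim25 and Trim26. The first fold of Trim12c was 3.32 without eGFP supernatant replicate 2.

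Trim21 encodes a cytosolic receptor for antibody Fc that marks antibody-coated virus for the proteasome. It was at 15.9, 15.0 and 14.5 CPM in untreated BMDM and 16.0, 20.4 and 15.9 CPM with eGFP supernatant. It was at 83.4, 73.1 and 79.2 CPM with Ifnb1eGFP supernatant and 85.0, 78.4 and 80.7 CPM with rIFNβ. Of the 10 it had the smallest adjusted p for either source of IFNβ with all libraries in the fit. Against eGFP supernatant without its replicate 2, Trim34a had the smallest (edgeR, adjusted p = 1.62e-09, and 2.41e-09 for Trim21). The log2 fold change was 2.17 (SE 0.0922, 4.51-fold, edgeR's quasi-likelihood test, adjusted p = 6.06e-09) against eGFP supernatant and 2.43 (5.38-fold, edgeR, adjusted p = 2.61e-09) for rIFNβ. The first was 4.93-fold without eGFP supernatant replicate 2.

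Trim25 attaches ubiquitin to the RNA sensor RIG-I and works with the antiviral protein ZAP, the product of Zc3hav1. It had by far the highest CPM of the members without IFNβ, at 209, 216 and 227 CPM in untreated BMDM and 217, 291 and 252 CPM with eGFP supernatant. With Ifnb1eGFP supernatant it was at 612, 609 and 700 CPM and with rIFNβ at 605, 603 and 675 CPM. The gap between the lowest library with IFNβ and the highest without it was wide, although the fold was among the smallest. Its log2 fold changes were 1.34 (SE 0.0986, 2.53-fold, adjusted p = 4.88e-07) and 1.53 (2.88-fold, adjusted p = 1.52e-07) by edgeR's quasi-likelihood test, the first being 2.73-fold without eGFP supernatant replicate 2.

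Trim14, a member without a RING finger that acts at mitochondria beside MAVS, was at 19.0, 20.2 and 18.6 CPM in untreated BMDM and 17.5, 21.5 and 17.3 CPM with eGFP supernatant. It was at 50.7, 57.3 and 54.7 CPM with Ifnb1eGFP supernatant and 59.8, 60.9 and 53.7 CPM with rIFNβ. The log2 fold changes were 1.53 (SE 0.0867, 2.89-fold, adjusted p = 5.73e-08) and 1.59 (3.02-fold, adjusted p = 3.73e-08) by edgeR's quasi-likelihood test, and the first fold was 3.11 with that condition's replicate 2 left out. Trim14 was the only member whose mean level with eGFP supernatant, 18.8 ± 2.34 CPM, lay below that of untreated control, 19.3 ± 0.836 CPM (SD, n = 3), and these groups overlapped.

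Trim26, a ligase encoded near the MHC genes, changed least. Its levels were 45.3, 50.1 and 50.3 CPM in untreated BMDM and 46.5, 54.5 and 51.6 CPM with eGFP supernatant. They were 80.4, 81.8 and 85.8 CPM with Ifnb1eGFP supernatant and 86.0, 83.4 and 90.1 CPM with rIFNβ. The groups with and without IFNβ did not overlap. The log2 fold changes were 0.70 (SE 0.0635, 1.63-fold, adjusted p = 2.61e-06) and 0.83 (1.78-fold, adjusted p = 5.97e-07) by edgeR's quasi-likelihood test, the first being 1.69-fold with eGFP supernatant replicate 2 left out.

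The balance among the members therefore differed with IFNβ. Their summed level was 417 ± 2.46 CPM in untreated BMDM, 499.95 ± 103 CPM with eGFP supernatant, 1981 ± 121 CPM with Ifnb1eGFP supernatant and 1931 ± 56.0 CPM with rIFNβ (SD, n = 3). Trim25 made up 52.2% of that sum in untreated BMDM and 32.5% with rIFNβ, and 51.1% with eGFP supernatant and 32.3% with Ifnb1eGFP supernatant. The share of Trim30a was 11.8%, 27.3%, 14.1% and 28.1% in the same order.

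Between genes, levels were compared per kb of the Ensembl canonical transcript. In untreated BMDM Trim25 was the highest at 38.9 ± 1.62 CPM per kb, followed by Trim26 at 14.9 ± 0.868 and Trim30a at 13.0 ± 1.36. The ranges of mean ± SD of Trim26 and Trim30a overlapped. So did those of each pair of neighbors among Trim12c at 6.6 ± 0.556, Trim14 at 5.9 ± 0.256, Trim34a at 5.49 ± 0.561, Trim21 at 5.40 ± 0.251 and Trim30d at 4.2 ± 1.03 CPM per kb. Then came Trim12a at 2.28 ± 0.0469 and Trim30b at 0.258 ± 0.092 CPM per kb. With Ifnb1eGFP supernatant Trim30a was first at 148 ± 15.1 CPM per kb and Trim25 second at 114 ± 9.21. Trim30d at 63.6 ± 6.88 and Trim34a at 63.6 ± 5.38 CPM per kb could not be ordered. Trim21 at 28.0 ± 1.85, Trim26 at 25.3 ± 0.856 and Trim12c at 24.1 ± 1.7 followed, with neighbors in that order overlapping. Trim14 at 16.6 ± 1.01, Trim12a at 10.4 ± 0.707 and Trim30b at 6.62 ± 0.62 CPM per kb closed the order. The place of Trim30a depends on the length used. Over the union of its annotated exons, which is 9797 bases against 3778 for the canonical transcript, it was at 56.9 CPM per kb, below Trim25 at 111, Trim30d at 63.6 and Trim34a at 62.2 CPM per kb. That length was tried after the levels had been seen.

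The counting of paralogs limits how exactly their levels are known. Of the stretches of 50 bases in the canonical transcript of Trim34a, 43.9% also occur in transcripts of another gene, Trim34b, and for Trim12c 33.8% recur in other genes, Trim5 and Trim12a among them. The share was 11.9% for Trim12a, 8.4% for Trim30d, 6.76% for Trim30a, 1.15% for Trim14 and under 1% for the others. RSEM divides reads that match several genes. Values of Trim12a, Trim12c, Trim14, Trim30b, Trim30d and Trim34a were not whole numbers in any of the 12 libraries, and those of Trim30a in 11. Those of Trim21, Trim25 and Trim26 were whole in all 12. With paralog counts added together, the log2 fold change against eGFP supernatant was 1.73 for Trim12a and Trim12c and 3.14 for Trim34a and Trim34b (edgeR, adjusted p = 1.98e-07 and 7.36e-08), and 1.90 and 3.46 with eGFP supernatant replicate 2 left out.

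The second question was whether the 2 conditions with IFNβ differed. They differ in the source of IFNβ, in tumor supernatant and in the Dox given to donor cells, which cannot be told apart here. Between Ifnb1eGFP supernatant and rIFNβ, at equal IFNβ concentrations, none of the 10 members was called in either direction by edgeR's quasi-likelihood test. At an unadjusted p under 0.05 there were 0 members, and 1288 of the 15033 genes tested. Here 0.14% of all genes tested were called higher. DESeq2 also called 0 members. The log2 differences had a median of 0.0159 and ran from -0.10 in Trim14 to 0.08 in Trim30d. Trim21 differed by -0.05 with a 95% interval from -0.24 to 0.14, and Trim25 by 0.03 with an interval from -0.19 to 0.24. The intervals were wider for the paralogs, from -0.43 to 0.58 in Trim30a and from -0.53 to 0.70 in Trim30d. Libraries of the 2 conditions overlapped in all 10 genes, where 8.22% of all genes had the Ifnb1eGFP libraries above the rIFNβ libraries. Over all genes and both directions 24 were called, and 48 once the replicate number entered the fit as a block, which called 0 members.

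The third question was whether control supernatant alone moved these genes. Against untreated control, eGFP supernatant called 0 of the 10 by edgeR's quasi-likelihood test, and 0.246% of all genes tested were called higher. At an unadjusted p under 0.05 there were 3, Trim12c, Trim30a and Trim25, each with a mean above that of untreated control (log2 differences 0.30, 0.57 and 0.22), and 4.85% of all genes were higher at that p. DESeq2 called 0. The log2 differences had a median of 0.26 and ran from -0.04 in Trim14 to 0.62 in Trim30d. Libraries overlapped in all 10 genes, and 7.96% of all genes had the eGFP supernatant libraries above the controls.

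**Figure D2:**
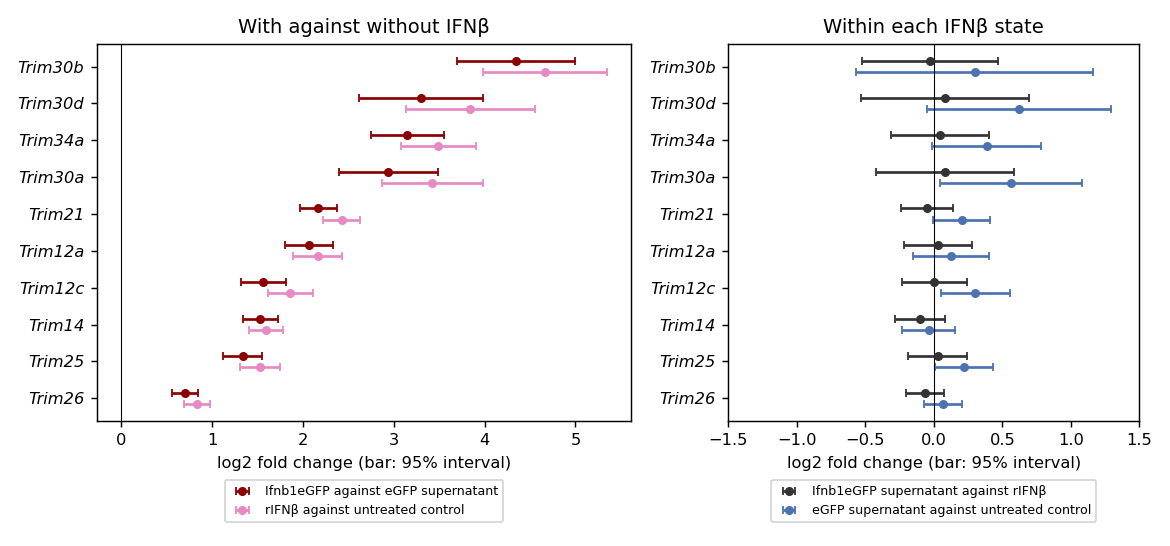
Log2 fold change of each TRIM gene with its 95% interval, for the comparisons with against without IFNβ on the left and for those between conditions of the same IFNβ state on the right. On the left every interval lies above 0, from Trim26 at 0.70 to Trim30b at 4.34 for the supernatants, and on the right values lie between -0.10 and 0.62.

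Much of that difference came with 1 library. In eGFP supernatant replicate 2 all 10 members were above the mean of replicates 1 and 3, from 1.11 times in Trim26 and 1.23 times in Trim14 to 2.06 times in Trim30a, 2.28 times in Trim30b and 2.39 times in Trim30d. The median of that ratio over all genes tested was 1.004. The interferon-stimulated list was 5.05 times as high. Replicates 1 and 3 themselves differed by 2.55 times in Trim30b, more than its ratio, and by 1.11 times in Trim26. In the other members they differed by 1.20 times or less. Without the library the log2 difference of eGFP supernatant against untreated control was 0.13 in place of 0.57 in Trim30a, 0.07 in place of 0.62 in Trim30d, 0.08 in place of 0.39 in Trim34a, -0.06 in place of 0.13 in Trim12a and -0.22 in place of 0.30 in Trim30b. In Trim12c the log2 difference was 0.14 in place of 0.30, in Trim25 0.11 in place of 0.22 and in Trim21 0.075 in place of 0.20. In Trim26 it was 0.01 in place of 0.07 and in Trim14 -0.14 in place of -0.04. None of the 10 was called with or without this library. The members that were highest in this library relative to the others were those with the largest folds for rIFNβ against untreated control, a comparison that holds no eGFP supernatant library. What set the library apart was not tested.

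**Figure D3:**
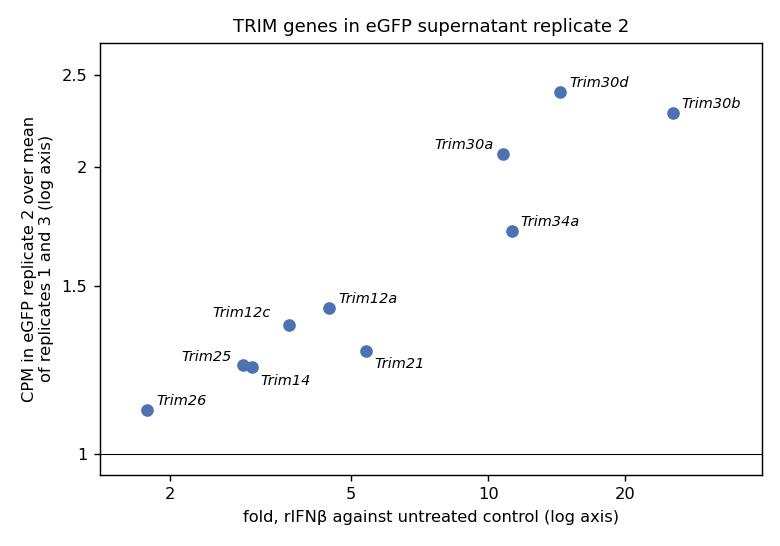
Level of each TRIM gene in eGFP supernatant replicate 2 as a ratio to the mean of replicates 1 and 3 (log axis), against its fold for rIFNβ over untreated control (log axis). All 10 points lie above 1, from 1.11 for Trim26 to 2.39 for Trim30d, and the 4 genes above 1.5 are Trim34a, Trim30a, Trim30b and Trim30d, whose folds with rIFNβ are above 10.

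Whether the response to IFNβ differed between supernatant and plain medium was tested as an interaction. By edgeR's quasi-likelihood test it was called in 0 of 10 members and in 0% of all genes, and 0 members had an unadjusted p under 0.05 where 661 genes did. DESeq2 called 16 genes and 0 members. The interaction term, the log2 fold change of the supernatants minus that of rIFNβ against untreated control, was below 0 in all 10, from -0.54 in Trim30d to -0.06 in Trim14. Without eGFP supernatant replicate 2 it was -0.05 in Trim30a, 0.01 in Trim30d, 0.10 in Trim12a, 0.05 in Trim14 and 0.19 in Trim30b, so that its sign changed in Trim12a, Trim14, Trim30b and Trim30d.

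Genes of the cluster that are not members were looked at next. Trim30c rose most of all TRIM genes tested, from 0.827, 0.820 and 0.426 CPM in untreated BMDM and 0.733, 2.27 and 0.577 CPM with eGFP supernatant to 44.3, 35.6 and 38.4 CPM with Ifnb1eGFP supernatant and 39.6, 38.2 and 39.1 CPM with rIFNβ. Its log2 fold change was 5.03 (32.8-fold, edgeR's quasi-likelihood test, adjusted p = 1.63e-07), and 59.9-fold without eGFP supernatant replicate 2. For rIFNβ it was 5.85 (57.7-fold, edgeR, adjusted p = 9.50e-08). Trim5 rose from 5.85 ± 1.54 to 14.7 ± 0.988 CPM (SD, n = 3), a log2 fold change of 1.33 (edgeR, adjusted p = 1.69e-05). Trim6, whose ligase makes free ubiquitin chains for the kinase IKKε, rose from 0.928 ± 0.214 to 2.84 ± 0.542 CPM (SD, n = 3), a log2 fold change of 1.61 (edgeR, adjusted p = 0.000236). Trim34b stayed under 1 CPM in every library, at 0.58 ± 0.17 CPM against 0.156 ± 0.161 CPM (SD, n = 3, log2 fold change 1.86, edgeR, adjusted p = 0.00966), and shares 49.1% of its 50-base stretches with other genes. Without eGFP supernatant replicate 2 the fold of Trim34b was 8.81 in place of 3.64, and the log2 fold changes of Trim5 and Trim6 were 1.55 and 1.73. The pseudogene Trim30e-ps1 had at most 2 counts in a library and was not tested. Every TRIM gene tested in the interval was thus higher with Ifnb1eGFP supernatant.

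The interval also holds 9 genes that are not TRIM genes, none of them annotated as protein-coding, and 2 of these were tested. Gm15133, a lncRNA with at most 150 counts in a library, had a log2 fold change of 2.59 (edgeR, adjusted p = 3.15e-05), and the processed pseudogene Gm16464 one of 1.11 (edgeR, adjusted p = 0.0492). They were at 3.08 and 1.90 without eGFP supernatant replicate 2. Both were named after their values had been seen.

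**Figure D4:**
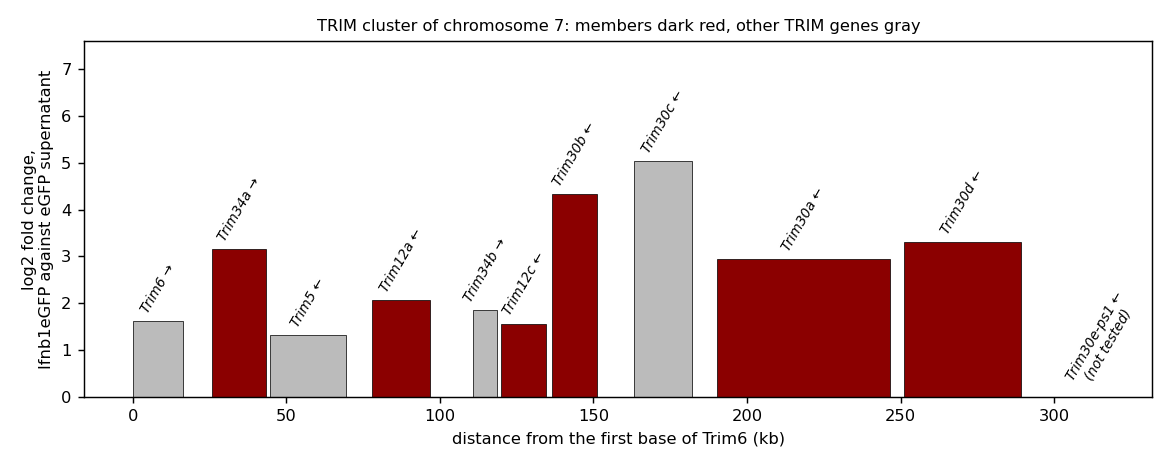
TRIM genes of the chromosome 7 cluster by distance in kb from the first base of Trim6, with arrows for the strand and bars as wide as the gene whose height is the log2 fold change of Ifnb1eGFP against eGFP supernatant. Bars run from 1.33 in Trim5 to 5.03 in Trim30c, members are dark red and other TRIM genes gray, and Trim30e-ps1 was not tested.

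Of the other 63 TRIM family genes listed (with Pml, Mefv, Mid1 and Mid2 counted in), 38 were tested. With Ifnb1eGFP against eGFP supernatant 16 rose and 11 fell by edgeR's quasi-likelihood test, with a median log2 fold change of 0.19, where 30.1% of all genes were called higher and 25% lower. With rIFNβ against untreated control 17 rose and 11 fell, with a median of 0.24, where 30.7% of all genes were called higher and 24.6% lower. The share of the family called lower was thus near that of all genes. Without eGFP supernatant replicate 2 the first comparison had 14 higher and 11 lower of 39 tested, with 3 higher and 1 lower at the study's thresholds. In that fit 26.2% of all genes were called higher and 21.7% lower. At the study's thresholds 1 rose and 1 fell in the first comparison and 4 rose and 1 fell in the second. The members had been chosen with earlier results known, and their median is no independent measure against these.

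Apart from Trim30c, Trim34b and Trim6, the highest log2 fold changes were those of Pml and Mefv. Pml, which builds the nuclear bodies that bear its name, rose from 39.2 ± 9.71 to 144 ± 12.6 CPM (SD, n = 3, log2 fold change 1.88, edgeR, adjusted p = 3.79e-07). Mefv encodes pyrin, a sensor of the inflammasome, and was near the limit of detection at 0.343 ± 0.14 against 0.125 ± 0.0442 CPM (SD, n = 3, log2 fold change 1.45, edgeR, adjusted p = 0.0337). With eGFP supernatant replicate 2 left out Mefv was not called (2.47-fold, edgeR, adjusted p = 0.105) and Pml was at 2.10. The lowest were Trim29 (-2.24), Trim36 (-1.53), Trim7 (-1.46), Trim16 (-1.17) and Trim66 (-1.04, largest adjusted p of these 5 in edgeR 0.00157). Of these Trim29 had 0.355 ± 0.163 CPM with Ifnb1eGFP and 1.70 ± 0.457 CPM with eGFP supernatant, and Trim36 had 2.54 ± 0.435 and 7.33 ± 1.04 CPM (SD, n = 3). With rIFNβ against untreated control Trim29 was at -2.13 and Trim36 at -1.61.

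**Figure D5:**
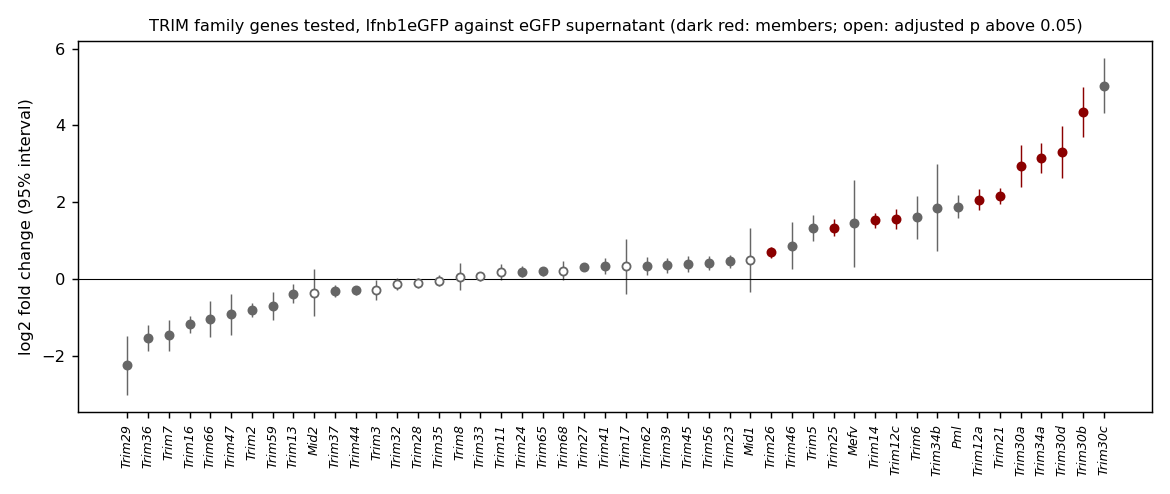
Log2 fold change of Ifnb1eGFP against eGFP supernatant with 95% intervals for every TRIM family gene tested, in order, with members in dark red and genes at an adjusted p above 0.05 as open points. The 10 members lie at 0.70 or above, Trim30c is the highest at 5.03 and Trim29 the lowest at -2.24.

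Partners of TRIM proteins were taken as a list of 27 genes for sensors, adaptors, kinases, ubiquitin enzymes and effectors, all of which were tested. With Ifnb1eGFP against eGFP supernatant 15 rose and 4 fell by edgeR's quasi-likelihood test, with a median log2 fold change of 0.28 and 6 past the study's thresholds, beside 30.1% of all genes called higher and 25% lower. There were 15 higher and 3 lower without eGFP supernatant replicate 2, beside 26.2% of all genes called higher and 21.7% lower. With rIFNβ against untreated control 17 rose and 4 fell (median 0.33), beside 30.7% and 24.6% of all genes. In the first comparison the highest folds were 71.2 in Irf7, 27.5 in Mx1, 25.3 in Isg15 and 9.02 in Rigi. Without eGFP supernatant replicate 2 they were 169, 78.2, 65.7 and 13.0. The 5 with the smallest adjusted p in that comparison, with all libraries in the fit, stand at several steps of TRIM action. Without the replicate Isg15, Mx1 and Rigi were among the 5 smallest in place of Vcp, Cgas and Rnf135. Ube2l6, which encodes the conjugating enzyme for ISG15, rose from 73.9 ± 9.82 to 296 ± 10.1 CPM (SD, n = 3, log2 fold change 2.00, edgeR, adjusted p = 6.49e-09). Vcp, the segregase that works with Trim21 in freeing antibody-bound virus for breakdown, fell from 629 ± 4.72 to 386 ± 1.17 CPM (SD, n = 3, log2 fold change -0.70, edgeR, adjusted p = 1.51e-08). The other 3 rose, with log2 fold changes of 1.41 for Cgas, the DNA sensor, 1.38 for Rnf135, a ligase of RIG-I, and 2.96 for Ifih1, which encodes the RNA sensor MDA5 (edgeR, adjusted p = 2.23e-08, 8.13e-08 and 2.66e-07), and 1.48, 1.46 and 3.30 with eGFP supernatant replicate 2 left out.

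Of the 27, 8 were not called in that comparison. They were the conjugating enzymes Ube2n, Ube2v1 and Ube2v2, the adaptors Traf3 and Tab3, the kinase Map3k7 and the transcription factors Irf3 and Rela. Their log2 fold changes ran from -0.11 in Ube2v2 to 0.22 in Ube2v1, whose 95% interval reached 0.43. Of them Rela and Tab3 were called higher and Ube2n lower with rIFNβ against untreated control (edgeR, adjusted p = 0.0479, 0.0259 and 0.0211), at log2 fold changes of 0.29, 0.18 and -0.14. The interaction was not called for these 3 by edgeR's quasi-likelihood test.

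For the 3 members with the largest log2 fold change, the gene outside the family with the most similar pattern was found from the mean level in each of the 4 conditions, on a log2 scale centered on each gene. It was Gvin2 for Trim30d, a gene of the very large interferon-inducible GTPases, with a distance of 0.0431, and Oas1b for Trim34a, an oligoadenylate synthetase gene, with a distance of 0.0698. Gvin2 measured 59.9 CPM without treatment, 94.8 CPM after eGFP supernatant, 882 CPM after Ifnb1eGFP supernatant and 834 CPM after rIFNβ. Oas1b was at 1.92, 2.47, 22.5 and 23.3 CPM in the same order. In Gvin2 the conditions stood in the same order of mean level as in Trim30d. In Oas1b rIFNβ was above Ifnb1eGFP supernatant, where Trim34a had the reverse, and the means with eGFP supernatant include its replicate 2. For Trim30b it was the predicted gene Gm52955 with a distance of 0.151, listed at 0 CPM in both conditions without IFNβ and at 1.29 and 1.22 CPM in those with it. Its log2 level without IFNβ was therefore set by the prior count of 2 added before taking logs.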

How the data were processed

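Total RNA libraries (TruSeq Stranded Total RNA) of M2-like BMDM were sequenced by the authors, who aligned reads with RSEM 1.3.3 and deposited expected counts per Ensembl gene, neither normalized nor filtered. The study names its genome as GRCm39 mm10, which joins 2 build names. Positions here are those of GRCm39 in GENCODE M39, which names 56017 of the 56748 genes. The members and all lists were chosen with earlier results of these data known.

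Of the values 12% were not whole (tolerance 0.005), and all were rounded. A quasi-likelihood model over 12 libraries was fitted with edgeR 4.0.16 (R 4.3.3) to the genes that filterByExpr kept, with TMM scaling. P-values were adjusted by Benjamini-Hochberg over 15033 genes, and genes were called at 0.05. Exact permutation of 3 against 3 libraries gives no p below 0.1, so it was not used for single genes. SE was the log2 fold change divided by the root of F. Log2 CPM used a prior count of 2. The log2 fold changes came from the fitted model, which did not use that prior count. On simulated data for Ifnb1eGFP against eGFP supernatant with 15033 genes, 77% of genes changed by a log2 fold change of 1 and 84% of those changed by 2 were recovered, and 0.0902% of unchanged genes were called.

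Libraries of a condition differed by more than counting error (chi-square per degree of freedom 5.72 to 59.3). Samples were grouped by their treatment label. The replicate number paired libraries of Ifnb1eGFP supernatant and rIFNβ (Pearson r of deviations across genes 0.167, 0.246 and 0.207), a hint from the data alone, and no source says what it stands for. Named were the members, the 5 highest and 5 lowest of the other family genes called, the cluster genes, the 5 partners with the smallest adjusted p and those not called, and the nearest gene of 3 members. The partners with the highest folds were added after seeing the data. Alternatives were DESeq2 1.42.0, RLE factors, no filter, a replicate block, paralogs summed, only the compared conditions, a log2 fold change of at least 1, each library left out and, added after seeing the data, union exon length and the other lists without eGFP supernatant replicate 2.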

Additional observations from a re-analysis of the deposited data

How the results depend on the processing

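All 10 members were called higher, in Ifnb1eGFP against eGFP supernatant and in rIFNβ against untreated control, with edgeR's RLE factors, with DESeq2, without the filter, with only the compared conditions and without any 1 library (10 to 10 called). A log2 fold change of at least 1 left 9, as Trim26 fell below it, and summed paralogs gave 7 of 7. The other 3 comparisons gave 0 members throughout, including without any 1 library (0 to 0). Over the 620 single-gene values of members under the other alternatives, no call changed. The fit with the replicate block also called 10, 10, 0, 0 and 0 members. In the comparisons of the 2 supernatants, of rIFNβ with untreated control and of eGFP supernatant with untreated control the numbers did not pair the libraries by the correlation used (lowest r 0.0892, 0.0765 and 0.0774), although 12 of 12 libraries correlated best with a library of their own number. Over all genes the block changed the calls between Ifnb1eGFP supernatant and rIFNβ from 24 to 48 and between eGFP supernatant and untreated control from 45 to 122, and DESeq2 called 116 and 205. For these the cause was not tested. In untreated BMDM and with Ifnb1eGFP supernatant the levels per kb of Trim12a, Trim14, Trim21, Trim26, Trim30a and Trim30b were lower by more than 1 SD over union exon length, because that length is greater. Depth limits Trim30b most, with 16 to 67 counts per library with eGFP supernatant.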
